A study of Mus musculus with 6 samples.

Results

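The Id and Hes/Hey repressors are small helix-loop-helix transcription regulators, and 10 of their genes were followed here among the 24063 gene symbols of the series: Id1, Id2, Id3, Id4, Hes1, Hes5, Hes6, Hey1, Hey2 and Heyl. The members were taken by symbol, each had 1 transcript row, and all 10 were found. The set was proposed with results of these data in view, namely that Id1 was lower and Id2 higher in cells with a Miat guide. The members were thus chosen by their measured levels in the Miat guides against the control. Their levels and calls against the control guide are therefore a description: no p is given for them and they count as no evidence. The difference between the 2 Miat guides is the contrast in which the members' p-values are given.

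Id proteins lack the DNA-binding basic region of other helix-loop-helix factors. They pair with E proteins such as Tcf3, Tcf4 and Tcf12 and keep them from DNA, which holds progenitors back from differentiation. Most Hes and Hey proteins do bind DNA and repress neurogenic genes, with Groucho-type (Tle) proteins as corepressors. Hes6 is an exception, since it counters Hes1 and favours neuronal differentiation. Hes1, Hes5 and the Hey genes are known direct targets of Notch signalling, and Id genes are known targets of BMP signalling through Smad factors. In the developing cerebellum and in neural stem cells both families, Hes6 aside, mark undifferentiated cells.

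The samples were stem-like medulloblastoma cells from mouse cerebellum, 6 RNA-seq libraries in 3 groups of 2. All groups share the genotype Math1-Cre; SmoM2, in which Cre under the Math1 (Atoh1) promoter turns on an active Smoothened, the Hedgehog signal transducer, in granule neuron progenitors. The control cells carry the guide sgGal4-4, named for a yeast protein, and are labelled WT, though they carry the same transgenes. The other groups carry sgMiat-6 or sgMiat-96, both labelled as a knockdown of the long noncoding RNA Miat. No age, treatment or number of animals is given in the labels. Whether the 2 libraries of a group came from separate cultures is not stated either, so the p-values reflect how these particular libraries vary, and that variation may be technical. Counts over the 1 row kept per symbol summed to between 18438909 and 19650274 per library. Miat itself (chromosome 5, 112213228 to 112229395, GRCm38) had 140 and 139 counts in the control libraries and 0 in each of the 4 Miat libraries. Of 10 granule neuron progenitor markers 7 had a mean of at least 1 CPM in the control, such as Ptch1 at 77.9 and Zic1 at 50.7 CPM, but Atoh1 was listed at 0 in all 6 libraries. Of 8 neural stem cell markers 6 reached 1 CPM in the control, such as Sox2 at 218 and Nes at 1126 CPM, while Prom1 and Fut4 were at 0 there. CPM is a count scaled to library size, here with TMM factors from edgeR.

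Promoter windows of 250 bases before the transcript start were available from RefSeq (GRCm38.p6) for 6 of the 10 members, Id2, Id3, Id4, Hes5, Hes6 and Hey2. Those of Hes5, Hey2 and Id4 are shown because these are the members at or near 0 counts in one group. The windows of Id2 and Id3 share 161 and 250 bases with exons of GENCODE M21 transcripts and are not shown. Of the windows shown, that of Hey2 shares 18 bases with such an exon, and those of Hes5 and Id4 share 0. Capitals mark the RBPJ core TGGGAA, the site of the DNA-binding factor of the Notch pathway, and GGCGCC, a box that BMP-activated Smad factors bind, each on either strand. No marked sites overlap.

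Hes5, chr4:154960673-154960922, plus strand: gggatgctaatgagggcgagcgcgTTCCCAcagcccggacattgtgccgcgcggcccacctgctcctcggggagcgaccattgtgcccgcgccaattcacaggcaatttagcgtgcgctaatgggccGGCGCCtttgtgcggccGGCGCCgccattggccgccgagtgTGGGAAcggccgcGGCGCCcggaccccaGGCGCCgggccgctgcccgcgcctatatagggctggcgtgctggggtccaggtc

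Hey2, chr10:30842784-30843033, minus strand: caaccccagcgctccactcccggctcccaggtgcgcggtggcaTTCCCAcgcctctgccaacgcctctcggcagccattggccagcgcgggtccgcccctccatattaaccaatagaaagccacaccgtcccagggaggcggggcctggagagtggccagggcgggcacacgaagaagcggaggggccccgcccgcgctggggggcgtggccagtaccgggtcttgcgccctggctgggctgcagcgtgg

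Id4, chr13:48260866-48261115, plus strand: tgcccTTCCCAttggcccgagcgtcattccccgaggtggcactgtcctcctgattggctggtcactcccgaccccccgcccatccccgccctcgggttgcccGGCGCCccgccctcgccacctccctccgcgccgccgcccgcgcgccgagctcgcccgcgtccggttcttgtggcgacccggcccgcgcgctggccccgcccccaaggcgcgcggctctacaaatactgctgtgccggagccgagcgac

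Hes5 held 2 RBPJ cores, beginning 226 and 82 bases before the start, and 4 GGCGCC boxes. Hey2 held 1 core, beginning 207 bases before the start, and 0 GGCGCC boxes, and Id4 held 1 of each. The Id2 window held 1 GGCGCC box and 0 RBPJ cores, and the windows of Id3 and Hes6 held neither. Of 32851 RefSeq promoter windows of the same length, 21.6% hold the RBPJ core and 9.59% hold GGCGCC. Of the remaining motifs searched on both strands, the E box CANNTG, bound by bHLH activators, is in 66.2% of all windows and the N box CACNAG, bound by Hes proteins, is in 36.7%. Id4 had 1 N box, and Hes5, Hey2 and Id2 each had 1 E box. Hes6 has 2 windows, which held 1 and 3 E boxes, and the first held 1 N box. A match is a description of the letters in these windows and nothing more.

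Of the 10 members, 8 passed the filter on low counts, and Hey2 and Heyl did not. Id4 and Hes5 passed only through the Miat libraries, where their counts were higher, so these had to differ. Calls were made with edgeR's quasi-likelihood test over 13219 genes, at an adjusted p below 0.05. With both Miat guides against sgGal4-4, 3 of the 8 tested members were called higher (Id2, Id4 and Hes5) and 5 lower (Id1, Id3, Hes1, Hes6 and Hey1), in a comparison that called 66.5% of all genes, 33.1% higher and 33.4% lower. The median log2 fold change was -0.53 over the tested members and 0.00 over all genes. With sgMiat-6 the members split into 3 higher and 5 lower, where 53% of all genes were called, 26.9% higher and 26.1% lower. With sgMiat-96 they split into 3 higher and 4 lower, where 68.2% of all genes were called, 34% higher and 34.2% lower. Nothing is read from these counts, because the choice of members used this contrast. The guides share the same control libraries. Scaled by total counts alone, the calls over all genes with sgMiat-96 split into 3537 higher and 5549 lower in place of 4495 and 4519, with a median of -0.20.

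**Figure D1:**
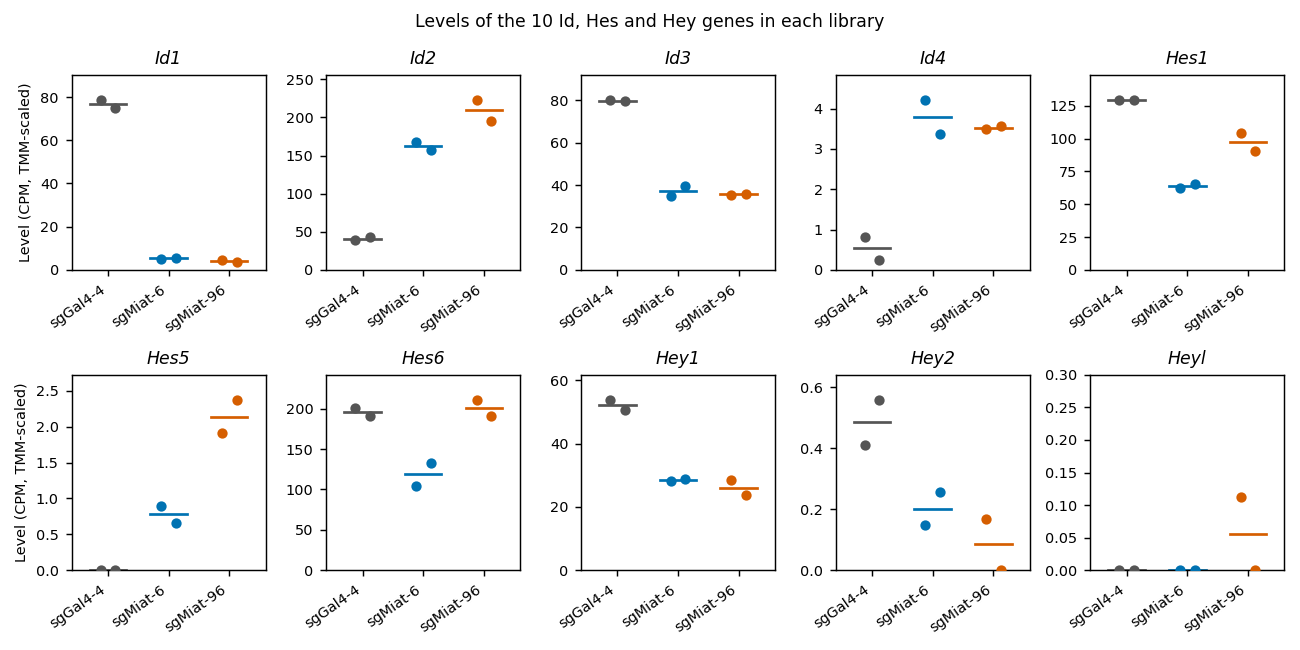
Level of each member in every library, in CPM scaled by TMM on a linear axis from 0, with a separate axis per gene. Points are libraries and bars are means of 2. Id1 lies between 3.87 and 5.67 CPM in the 4 Miat libraries against 75.1 and 78.6 CPM in the control, and Id2 between 157 and 223 CPM against 39.3 and 42.5 CPM.

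Among the Id genes, Id1 and Id2 went in opposite directions. Id1 (chromosome 2, 152736251 to 152737410, plus strand), a classic BMP-induced Id gene, had 78.6 and 75.1 CPM in the control libraries. It had 4.91 and 5.67 CPM with sgMiat-6, and 4.67 and 3.87 CPM with sgMiat-96. All 4 Miat libraries lay far below both controls. Id1 had a log2 fold change of -3.86 ± 0.15 (SE) with sgMiat-6 and -4.17 ± 0.16 with sgMiat-96, or 14.5-fold and 18.0-fold lower. With both guides Id1 had the 217th lowest of the 13219 fold changes. In bulk RNA, fewer cells that express a gene and less RNA per cell cannot be told apart.

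Id2 (chromosome 12, 25093799 to 25097140, minus strand), which can also bind the retinoblastoma protein, had 39.3 and 42.5 CPM in the control. It had 168 and 157 CPM with sgMiat-6, and 223 and 196 CPM with sgMiat-96. The 3 groups did not overlap, and the highest levels were those of sgMiat-96. Against the control, Id2 had a log2 fold change of 1.99 ± 0.11 (SE) with sgMiat-6 and 2.36 ± 0.12 with sgMiat-96.

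Id3 (chromosome 4, 136143497 to 136145755, plus strand), often coexpressed with Id1, had 80.1 and 79.5 CPM in the control libraries. It had 34.9 and 39.5 CPM with sgMiat-6, and 35.2 and 36.0 CPM with sgMiat-96. Id3 thus lay below both controls in every Miat library, and the 2 Miat groups overlapped each other. The log2 fold change of Id3 was -1.10 ± 0.12 (SE) and -1.17 ± 0.12 with the 2 guides, a smaller change than that of Id1.

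Id4 (chromosome 13, 48261228 to 48266026, plus strand), which can also antagonise the other Id proteins, was nearly silent in the control, with 16 and 5 counts. It had 85 and 66 counts with sgMiat-6, and 62 and 62 counts with sgMiat-96. All 4 Miat libraries were above both controls, at 3.37 to 4.21 CPM against 0.824 and 0.253 CPM. Id4 had log2 fold changes of 2.81 ± 0.41 (SE) and 2.70 ± 0.41. With both guides it was 2.75, and the controls differ enough from each other that it ranged from 2.14 to 3.82 when 1 library was left out, the lowest and the highest being the values without 1 or the other control library. 2 noncoding genes lie on the opposite strand across the start of Id4, and since strand use is not given, reads of the 2 strands cannot be told apart there.

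**Figure D2:**
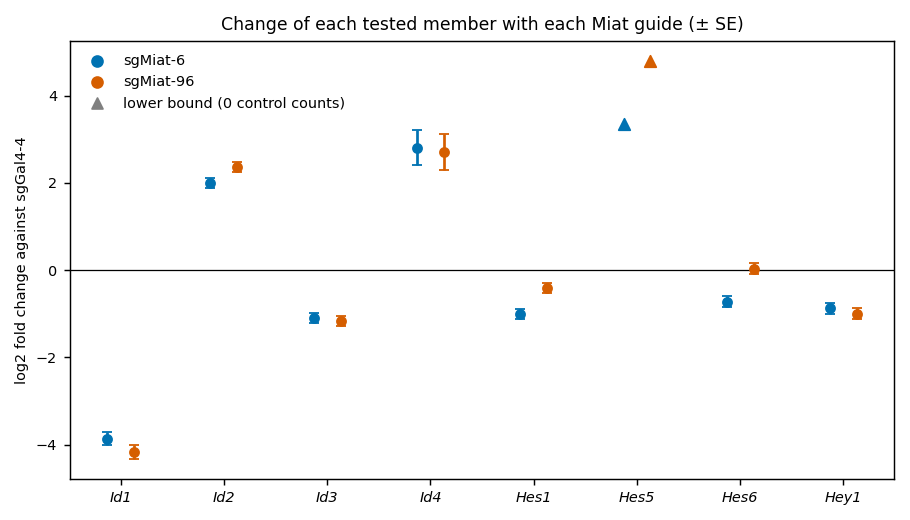
Log2 fold change of each tested member against sgGal4-4, with sgMiat-6 in blue and sgMiat-96 in orange. Circles are fitted values with bars of 1 SE, and triangles are lower bounds for Hes5, which had 0 control counts. Id1 lies near -4, Id2 near 2, and Hes6 lies at -0.73 with sgMiat-6 and 0.03 with sgMiat-96.

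Per kilobase of transcript, the sum of the 4 Id genes differed less between groups than its make-up did. Their summed level was 199.6 and 197.4 CPM per kb in the control libraries. It was 177 and 173 with sgMiat-6, and 219 and 198 with sgMiat-96, in the same unit. The control and sgMiat-96 groups overlapped in this sum, and sgMiat-6 lay below both. Id1 made up 41.4% ± 1.02 (SD, n = 2) of the sum in the control, 3.24% ± 0.37 with sgMiat-6 and 2.19% ± 0.13 with sgMiat-96. Id2 made up 16.2% ± 1.02 in the control, 73.1% ± 2.41 with sgMiat-6 and 78.8% ± 1.52 with sgMiat-96. The share of Id3 went from 42.2% ± 0.119 to 22.3% ± 2.23 and 18.0% ± 1.56. The ratio of Id2 to Id1 was 0.367 and 0.416 in the control libraries, 25.2 and 20.4 with sgMiat-6, and 35.1 and 37.2 with sgMiat-96. The dominant Id transcript was thus Id3 or Id1 in the control libraries and Id2 in each Miat library.

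**Figure D3:**
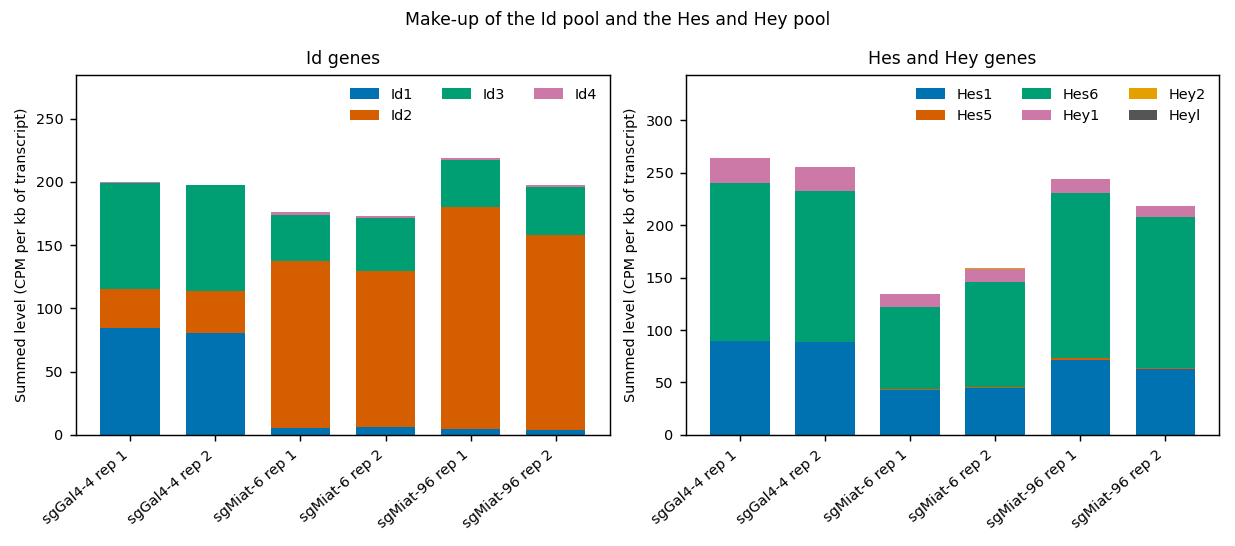
Summed level of the Id genes (left) and of the Hes and Hey genes (right) in each library, in CPM per kilobase of transcript, stacked by gene. The Id bars differ little in height, from 173 to 219, while the Id2 part grows and the Id1 part shrinks in the Miat libraries. The Hes and Hey bars are lowest with sgMiat-6.

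Among the Hes genes, Hes1 and Hes6 were the abundant ones. Hes1 (chromosome 16, 30064384 to 30067796, plus strand), a Notch effector that keeps neural progenitors undifferentiated, had 129.4 and 129.1 CPM in the control. It had 62.3 and 65.6 CPM with sgMiat-6, and 104 and 90.6 CPM with sgMiat-96. The groups did not overlap, and the sgMiat-96 libraries lay between those of sgMiat-6 and the control. The log2 fold change of Hes1 against the control was -1.01 ± 0.11 (SE) with sgMiat-6 and -0.41 ± 0.11 with sgMiat-96.

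Hes6 (chromosome 1, 91411483 to 91414038, minus strand), which counters Hes1 and favours neuronal differentiation, was the most abundant member per kilobase in the control. It had 201 and 191.4 CPM in the control, 104 and 133 CPM with sgMiat-6, and 210.3 and 191.2 CPM with sgMiat-96. Both sgMiat-6 libraries lay below the control, while the sgMiat-96 libraries spanned it. The log2 fold change of Hes6 was -0.73 ± 0.12 (SE) with sgMiat-6. With sgMiat-96 it was 0.03 ± 0.12, and -0.52 after correction for transcript length. Without control replicate 1, Hes6 was not called with both guides (log2 fold change -0.31, against -0.35 in all 6 libraries).

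Hes5 (chromosome 4, 154960923 to 154962371, plus strand), a Notch target typical of neural stem cells, had 0 counts in both control libraries. It had 18 and 13 counts with sgMiat-6, and 34 and 41 counts with sgMiat-96. Against a floor of 3 counts over the control group, Hes5 was at least 10.2-fold higher with sgMiat-6 and at least 27.9-fold higher with sgMiat-96. These floors cover counting error only. The level stayed low, at 0.778 ± 0.162 CPM and 2.14 ± 0.322 CPM (SD, n = 2 each). A noncoding gene overlaps Hes5 on the opposite strand.

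Of the Hey genes, which work as partners of Hes factors, only Hey1 was well expressed. Hey1 (chromosome 3, 8663359 to 8667256, minus strand) had 53.7 and 50.8 CPM in the control. It had 28.1 and 28.9 CPM with sgMiat-6, and 28.4 and 23.7 CPM with sgMiat-96. All 4 Miat libraries were below both controls, and the 2 Miat groups overlapped. Its log2 fold change was -0.87 ± 0.13 (SE) with sgMiat-6, or 1.83-fold lower, and Hey1 was 2.004-fold lower with sgMiat-96.

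Hey2 (chromosome 10, 30832359 to 30842801, minus strand) had 8 and 11 counts in the control, 3 and 5 with sgMiat-6, and 3 and 0 with sgMiat-96. The ratio of its counts to the control was 0.415 with sgMiat-6 (95% counting interval 0.157 to 0.992) and 0.176 with sgMiat-96 (0.0334 to 0.598). Without sgMiat-96 replicate 1, Hey2 passed the filter, but only through the control, where its counts were highest. It thus had to be lower with the Miat guides, and nothing is read from that setting. Heyl (chromosome 4, 123233556 to 123249875, plus strand) had 2 counts in sgMiat-96 replicate 1 and 0 in the other 5 libraries, which is under the floor of 3 counts, so no fold is given.

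Ordered by level per kilobase, the control libraries had Hes6 first at 147 ± 5.22 CPM per kb (SD, n = 2), then Hes1 at 89.1 ± 0.127, Id3 at 83.8 ± 0.417 and Id1 at 82.3 ± 2.67. Id3 and Id1 overlapped. Id2 at 32.2 ± 1.78 and Hey1 at 23.7 ± 0.934 came next, and Id4, Hey2, Hes5 and Heyl were each under 1 CPM per kb. With sgMiat-6 the order began with Id2 at 128 ± 5.96, Hes6 at 89.0 ± 15.4, Hes1 at 44.1 ± 1.59 and Id3 at 39.0 ± 3.37 CPM per kb. Id1 was sixth, at 5.66 ± 0.573. With sgMiat-96 it began with Id2 at 154 and 175 and Hes6 at 143 and 158 CPM per kb, whose libraries overlapped, and Id1 was again sixth, at 4.57 ± 0.605. The summed level of the 6 Hes and Hey genes was 264 and 256 CPM per kb in the control, 135 and 159 with sgMiat-6, and 244 and 218 with sgMiat-96. Hes6 made up 56.6% of this sum in the control, 60.5% with sgMiat-6 and 65.1% with sgMiat-96. The sum is therefore no measure of Hes1-like repressors alone.

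The 2 Miat guides were then compared with each other, a contrast that the choice of members did not name. In it 4 of the 8 tested members were higher with sgMiat-96 (Id2, Hes1, Hes5 and Hes6) and 0 were lower, while 36.7% of all genes were called, 17.9% higher and 18.8% lower. At an unadjusted p under 0.05 edgeR gave 4 higher and 0 lower, and DESeq2 called 3 higher and 0 lower. The median log2 fold change was 0.15 over the tested members and 0.01 over all genes. Hes6 rose by 0.76 ± 0.12 (SE) on the log2 scale from sgMiat-6 to sgMiat-96 (edgeR adjusted p = 0.00125, and between 5.77e-07 and 0.0365 over 14 alternatives). Hes1 rose by 0.61 ± 0.11 (adjusted p = 0.00206, and between 2.65e-05 and 0.0407 over the alternatives). The number of members higher was 2, Hes1 and Hes6, without sgMiat-6 replicate 2 and again without sgMiat-96 replicate 1. For both genes each sgMiat-96 library was above each sgMiat-6 library, and the share of all genes that do so was not counted.

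The rises of Id2 and Hes5 between the guides were less firm. Id2 rose by 0.36 ± 0.11 (SE) on the log2 scale (edgeR adjusted p = 0.0202). Its call was lost with total counts alone (0.21, adjusted p = 0.144), without sgMiat-6 replicate 2 (0.30, adjusted p = 0.0684), without sgMiat-96 replicate 1 (0.26, adjusted p = 0.155) and after correction for transcript length (0.02, adjusted p = 0.889). Hes5 rose by 1.45 ± 0.41 (adjusted p = 0.0169). Its call was lost in DESeq2 (adjusted p = 0.110), with the length trend removed (adjusted p = 0.0733) and without any 1 of the 4 Miat libraries (adjusted p = 0.0689 to adjusted p = 0.0953). Its level rests on 31 and 75 counts. Id1, Id3, Id4 and Hey1 were not called between the guides, with log2 differences of -0.31 ± 0.18, -0.06 ± 0.12, -0.10 ± 0.32 and -0.13 ± 0.13 (SE).

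Transcript length moved with the difference between the guides. The 3675 tested genes between 934 and 2205 bp, the range of the 8 tested members, had a median log2 fold change of 0.29 from sgMiat-6 to sgMiat-96, and the 8513 longer genes had -0.16. With this trend removed, Hes1 and Hes6 were still called higher with sgMiat-96 (0.31 and 0.44 on the log2 scale), while Id1 and Id3 were called lower (-0.72 and -0.47). Against the control, the genes of that length range had medians of 0.19 with sgMiat-6 and 0.46 with sgMiat-96. With both guides and the trend removed, Id1 stood at -4.47, Id2 at 1.77, Id3 at -1.58 and Hes1 at -1.07.

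**Figure D4:**
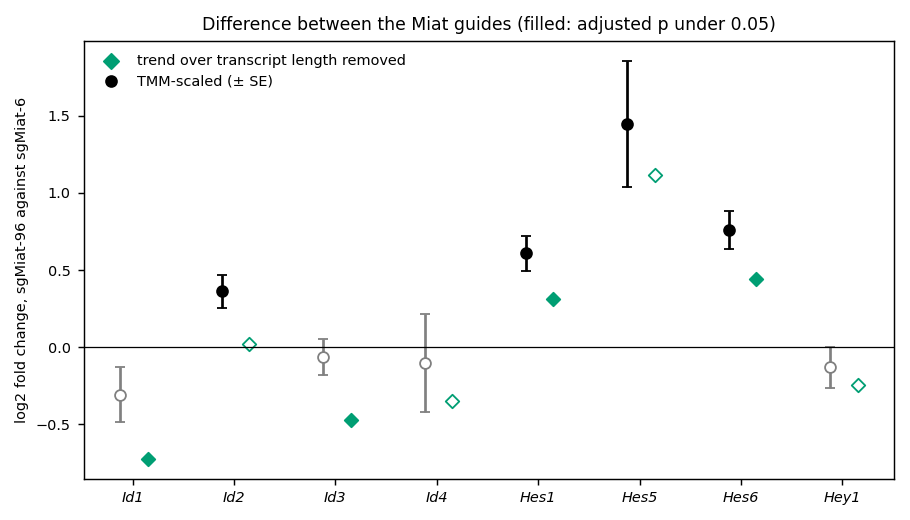
Log2 fold change of each tested member from sgMiat-6 to sgMiat-96. Circles are TMM-scaled values with bars of 1 SE, diamonds are values corrected for transcript length, and filled symbols are called at an adjusted p under 0.05. Hes1 and Hes6 are filled in both, Id2 and Hes5 only in the first, and Id1 and Id3 only in the second.

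Genes that the members act with were taken from lists made by role, though with earlier results of these data known. Of 28 Notch pathway genes 27 were tested, and with both Miat guides 8 rose, 13 fell and 6 were not called, against 66.5% called among all genes. The list's median log2 fold change was -0.10, where all genes had 0.00. Dtx1 and Jag2 passed the count filter only through the Miat libraries, and Dll4 only through the control. Dtx1 had 2 counts in the control and Dll4 had 1 and 3 with the 2 guides. The directions of these genes were thus fixed by the filter. Of its 4 most abundant genes, the receptor gene Notch1 fell from 464 CPM to 352 and 294 CPM with the 2 guides, a log2 fold change of -0.53 ± 0.11 (SE, edgeR adjusted p = 0.000913). Lfng, a glycosyltransferase that modifies Notch, rose by 0.70 ± 0.09 (adjusted p = 1.83e-05). Adam10, a protease that cleaves Notch, and Ncstn, a subunit of gamma-secretase, had log2 fold changes of 0.07 ± 0.11 and -0.08 ± 0.10 and were not called. Rbpj, the ligand genes Dll1 and Jag1, the receptor gene Notch3 and Mfng, a relative of Lfng, were chosen after their values were seen. Rbpj fell by 0.54 ± 0.11 and Dll1 had 0.08 ± 0.13, not called. Jag1 fell from 192 CPM to 40.7 and 26.9 CPM with the 2 guides, and Notch3 from 120 CPM to 17.2 and 17.3 CPM. Mfng fell from 36.1 CPM to 1.24 and 0.709 CPM. Rbpj, Jag1, Notch3 and Mfng were among the 13 that fell, beside the 8 that rose. With the trend over transcript length removed, 10 Notch genes rose and 8 fell. Without control replicate 1, the number of Notch genes that rose was 4.

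Of 23 BMP pathway genes 18 were tested, and 5 rose, 10 fell and 3 were not called with both guides (median log2 fold change -0.34). Among all genes 33.1% were called higher and 33.4% lower. Bmp5 passed the count filter only through the Miat libraries, and Acvrl1 and Smad9 only through the control, so their directions were fixed. The signal transducer genes Smad5 and Smad4 had log2 fold changes of -0.32 ± 0.10 (SE, edgeR adjusted p = 0.0133) and 0.13 ± 0.10, the latter not called. The receptor genes Bmpr1a and Bmpr2 fell by 0.40 ± 0.12 (adjusted p = 0.0122) and 0.49 ± 0.11 (adjusted p = 0.00197). With the length trend removed, 8 BMP genes rose and 4 fell, so most of the 10 falls lost their call there. Bmp5 and Bmp7, ligand genes chosen after their values were seen, rose: Bmp5 from 0.102 CPM to 21.1 and 22.5 CPM, and Bmp7 from 49.2 CPM to 106 and 121 CPM. The further ligand genes Bmp2, Bmp4 and Bmp6 had at most 1 count in any group, the control included. The number of BMP genes that fell was 4 with the length trend removed, 5 without control replicate 1 and 6 without sgMiat-96 replicate 1.

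Of 15 genes for bHLH activators and E proteins, the partners that Id proteins bind or hold back, only 7 were tested, and 4 rose, 1 fell and 2 were not called (median log2 fold change 0.45). The share called among all genes was 66.5%. Olig1 rose from 966 CPM to 1962 and 3277 CPM, and Olig2 from 969.6 CPM to 1179 and 1481 CPM. Of the E protein genes, Tcf4 fell by 0.62 ± 0.11 (SE) on the log2 scale (edgeR adjusted p = 0.000257), Tcf12 had -0.16 ± 0.12, not called, and Tcf3 rose by 0.70 ± 0.10 (adjusted p = 3.16e-05). Atoh1, Neurog1, Neurod6, Olig3 and Nhlh2 were listed at 0 in all 6 libraries. The number that fell was 0 with the length trend removed and 2 without sgMiat-6 replicate 1.

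Of 12 Hes corepressors and Hes-like repressors 11 were found in the files and 8 were tested, and 4 rose, 2 fell and 2 were not called (median log2 fold change 0.70). Over all genes 66.5% were called. The Groucho-type genes moved in both directions. Tle3, Tle1 and Tle2 rose by 1.92 ± 0.12, 1.14 ± 0.11 and 2.25 ± 0.14 (SE) on the log2 scale, while Tle4 fell by 1.92 ± 0.10, from 99.9 CPM to 27.9 and 25.0 CPM. Aes, a short relative of the Tle proteins, rose by 1.26 ± 0.10. Bhlhe40, a repressor related to the Hes family, fell from 258 CPM to 74.1 and 88.6 CPM. The further Hes genes Hes2, Hes3 and Hes7 were at 0, 0.204 and 1.12 CPM in the control.

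**Figure D5:**
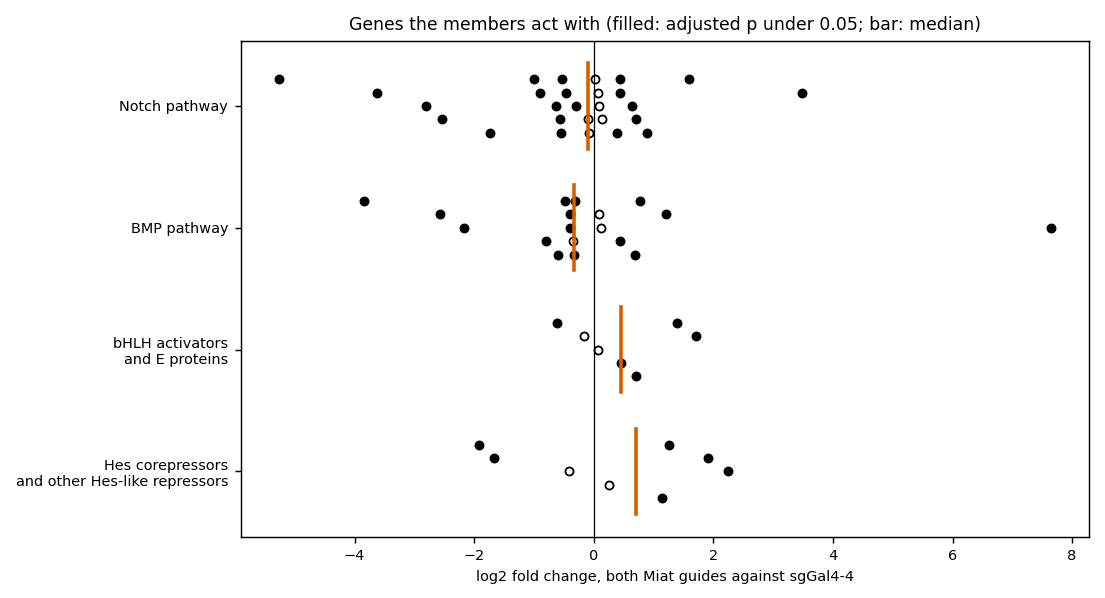
Log2 fold change of each tested gene of the 4 lists with both Miat guides against sgGal4-4. Filled points are called at an adjusted p under 0.05 and the orange bar is the list median, which lies at -0.10 for the Notch list and 0.70 for the corepressor list. Bmp5 is the point at 7.64.

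Markers of other cell types were examined beside Id1, Id3 and Hes1, which astrocytes also express. Of 10 astrocyte markers, 9 were tested with both guides, 8 were lower and 1 was higher, where 33.4% of all genes were lower and 33.1% higher. Their summed level was 3767 to 3894 CPM in the control, 1096 to 1154 CPM with sgMiat-6 and 1149 to 1209 CPM with sgMiat-96. Gja1 was at 0 in all libraries and Gfap had 29, 3 and 0 counts in the 3 groups. Gfap and Aqp4 passed the count filter only through the control, so they had to be lower. The part of these markers in the members' levels was not tested. Endothelial markers, another cell type with high Id1, summed to 8.24 to 9.02 CPM in the control, 10.8 to 13.9 CPM with sgMiat-6 and 6.69 to 7.27 CPM with sgMiat-96, with Cldn5 at 0 throughout. Of 3 tested with both guides, 1 was higher and 2 were lower. Flt1 rose from 2.30 CPM to 9.29 and 4.56 CPM, while Tek fell from 4.65 CPM to 2.86 and 2.05 CPM. Cdh5 passed the count filter only through the control, so it had to be lower. Oligodendrocyte markers summed to 160.0 to 181 CPM in the control and 43.3 to 54.2 CPM over the 4 Miat libraries, with Mag at 0 in all libraries. Microglial and fibroblast or pericyte markers summed to at most 2.83 and 10.8 CPM in any library. Granule neuron progenitor markers summed to 192 to 215 CPM in the control and 162 to 205 CPM in the Miat libraries, and neural stem cell markers to 3494 to 3607 and 5425 to 6387 CPM.

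Genes whose pattern over the 6 libraries was nearest to that of Id1 or Id2 were sought by the distance between log2 CPM profiles, each centred on its own mean, among 10863 genes averaging 2 CPM or more. Nearest to Id1 were Ace, which encodes angiotensin-converting enzyme, and Fbln2, a matrix protein gene, at distances of 0.43 and 0.46. Fbln2 had 27.2 ± 3.39 CPM (SD, n = 2) in control cells, against 2.01 ± 0.315 under sgMiat-6 and 1.65 ± 0.453 under sgMiat-96. Nearest to Id2 were Nqo1, a quinone reductase gene, Cdkn1a, a cell cycle inhibitor gene, and Aldh1a1, a retinaldehyde dehydrogenase gene, at 0.22, 0.23 and 0.24. Nqo1 had 9.14 ± 1.05, 34.6 ± 0.751 and 47.7 ± 9.98 CPM in the same order of groups. All points share libraries and depth, so these distances are descriptions.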

How the data were processed

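RNA was sequenced from 6 samples, 2 per guide, per the labels. Column-purified total RNA entered an mRNA library kit, per the labels' protocols. Per the submitters' processing notes, the tool named is STAR and the builds named are GRCm38 and mm10; its version, the read counter, the annotation release and the use of strand were not given in the sources used here. Per the file headers, each deposited file lists 33984 RefSeq transcript rows with their count, FPKM and TPM. Counts are whole numbers. The deposited FPKM served to recover transcript lengths and zeros, and the deposited TPM was not used. For each of 24063 symbols the row with the highest total count was kept. The second sgMiat-96 library lists 1 count in 11223 rows whose FPKM is 0, and these counts were set to 0.

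Counts were tested with edgeR 4.0.16 (limma 3.58.1, R 4.3.3) after filterByExpr and TMM scaling, in one model of 3 groups with 3 residual degrees of freedom, adjusted by Benjamini-Hochberg over 13219 genes. The biological coefficient of variation was 0.0986. Standard errors were taken as the absolute log2 fold change over the root of F. The floor was 3 counts, or 0.149 to 0.173 CPM in a library, and intervals (95%, Clopper-Pearson) cover counting error only. Replicates differed by more than sampling noise (chi-square per gene of 4.15 in the control, 18.5 with sgMiat-6, 14.2 with sgMiat-96). Alternatives were DESeq2 1.42.0, other scalings and filters, deposited zeros, the longest row, a loess offset over transcript length (span 0.3), a replicate block and each library left out. The test was checked on simulated data. Gene positions come from GENCODE M21 (GRCm38) and promoters from RefSeq (GRCm38.p6). Tables and plots were made in Python 3.11.15 using pandas 2.3.3 plus matplotlib 3.10.9.

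The members and lists were chosen with earlier results of these data known. All 10 members are named, and of each pathway list the 4 genes with the highest mean CPM, and every other list or marker gene named was chosen after its values were seen. The rule for genes nearest in pattern takes 3 each for Id1 and Id2, leaving out members and predicted genes, clones and pseudogenes; 1 of those for Id1 is not reported here.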

Additional observations from a re-analysis of the deposited data

Results flagged for a closer look

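The effects of the 2 Miat guides differed for 4 members, by the test of the difference itself (sgMiat-96 against sgMiat-6, edgeR's quasi-likelihood test). That test called 36.7% of all genes. The effect of sgMiat-96 minus that of sgMiat-6 on the log2 scale was 0.36 for Id2 (adjusted p = 0.0202), 0.61 for Hes1 (adjusted p = 0.00206), 1.45 for Hes5 (adjusted p = 0.0169) and 0.76 for Hes6 (adjusted p = 0.00125). Each sgMiat-96 library lay above each sgMiat-6 library for these 4 genes. The share of all genes that separate in this way was not counted, so nothing is read from it. Against the control, Hes6 had a log2 fold change of 0.03 ± 0.12 (SE) with sgMiat-96, not called, and -0.73 ± 0.12 with sgMiat-6. The calls of Id2 and Hes5 did not hold under every setting.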

How the results depend on the processing

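Of 448 log2 fold changes of members recomputed under 14 alternatives, 434 kept their side of the threshold and, where called, their direction; uncalled values near 0, such as Id3 between the guides (-0.47 to 0.01), could change sign. With the length trend removed, Hes6 with sgMiat-96 against the control was -0.52 in place of 0.03, and between the guides 2 members were higher and 2 lower. In that setting 10 Notch genes rose and 8 fell, 8 BMP genes rose and 4 fell, and 0 bHLH genes fell. The calls over all genes between the guides went from 4851 to 3203. Leaving out 1 library gave 2 to 4 members higher between the guides, 4 to 8 Notch genes up, 5 to 9 BMP genes down and 1 to 2 bHLH genes down. Over all genes, 1124 were called between the guides without sgMiat-96 replicate 1 and 2251 without sgMiat-6 replicate 1. With total counts alone, the split between the guides was 1380 higher and 3721 lower in place of 2361 and 2490, with a median of -0.14. The cause was not tested. The deviations of same-numbered libraries from their group means correlated at 0.04, -0.13 and -0.28, the last between sgMiat-6 and sgMiat-96. Such correlations cannot tell whether same-numbered libraries were prepared together, which is not stated. With the number as a replicate block, the members called were the same (3 higher and 5 lower with both guides, 4 higher and 0 lower between guides), and over all genes 8343 and 4044 were called in place of 8793 and 4851. Hey2, Heyl and control Hes5 and Id4 rest on few counts, so their levels are imprecise.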
